A study of Mus musculus with 2 samples.

Results

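The dystrophin-glycoprotein complex is a group of proteins at the surface membrane of muscle fibres, and 8 of its genes, taken from a list of names, were followed here among the 55536 genes of the deposited tables. The genes were dystrophin (Dmd), utrophin (Utrn), dystroglycan (Dag1), the sarcoglycans Sgca, Sgcb and Sgcd, dystrobrevin (Dtna) and sarcospan (Sspn). Total RNA had been sequenced from the gastrocnemius, a large muscle of the calf, in 2 libraries from male B6CASTF1/J mice, which are first-generation offspring of C57BL/6J and CAST/EiJ parents. The sample description gives an age of 18 to 20 months, while a separate age field reads unknown. Both libraries form 1 group with no treatment, no mutation and no second condition, so the data hold levels and the spread between 2 libraries. The males carry different numbers in the labels and the libraries are called biological replicates, yet both point to the same donor record. Whether the spread is between animals therefore cannot be told apart from spread between samples of 1 animal, and p-values measure only the difference between these libraries.

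Dystrophin is a long rod that binds actin inside the fibre with its N-terminal end and binds β-dystroglycan in the membrane with its C-terminal end. α-Dystroglycan, cut from the same precursor, carries sugar chains that hold laminin of the basement membrane, so the complex joins the cytoskeleton to the matrix. Sarcoglycans and sarcospan span the membrane beside dystroglycan, and dystrobrevin and the syntrophins sit on the inner side and bring in signalling proteins such as the neuronal nitric oxide synthase. Loss of dystrophin causes Duchenne muscular dystrophy, loss of a sarcoglycan causes limb-girdle dystrophies, and utrophin is a close relative of dystrophin that adult fibres keep mainly at nerve and tendon contacts.

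Dmd is read from several start sites, of which the far upstream one gives full-length dystrophin and a far downstream one the short dystrophins. The 250 bases before each of these RefSeq starts (assembly GRCm38.p6, + strand) are shown because the transcript values given further on differ strongly between them. The upstream window lies at chrX:82948620-82948869, just before the start of the retained-intron transcript Dmd-205, and the first base of the full-length transcript Dmd-203 is at 82948903. The downstream window lies at chrX:85048045-85048294, in an intron of Dmd-203 and before the start of the short dystrophin transcripts. Neither window overlaps an annotated exon. Capitals mark matches, on either strand, to an E-box (CANNTG, the core that myogenic factors bind), a CArG box (the serum response factor core), a GC box (GGGCGG) or a TATA box (TATAAA).
Dmd upstream: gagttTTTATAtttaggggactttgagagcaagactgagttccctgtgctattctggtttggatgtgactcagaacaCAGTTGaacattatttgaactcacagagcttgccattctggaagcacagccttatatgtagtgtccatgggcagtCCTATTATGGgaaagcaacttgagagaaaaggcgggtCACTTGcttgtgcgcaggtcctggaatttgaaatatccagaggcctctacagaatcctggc
Dmd downstream: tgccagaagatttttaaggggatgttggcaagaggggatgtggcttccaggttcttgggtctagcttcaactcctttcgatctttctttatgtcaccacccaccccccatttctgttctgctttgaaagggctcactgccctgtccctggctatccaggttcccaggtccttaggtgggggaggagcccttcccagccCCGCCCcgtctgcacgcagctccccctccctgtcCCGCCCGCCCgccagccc

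The upstream Dmd window held 2 E-boxes, 1 CArG box that ran from -98 to -89 relative to the start, and 1 TATA box match at -245. The downstream window held 3 GC boxes and none of the other motifs. GC content was 45.2% upstream and 60% downstream. Over 32841 RefSeq windows of the same length, the median GC content was 52.4%, an E-box was present in 66.2%, a CArG box in 1.47%, a GC box in 32.7% and a TATA box in 12.4%. These matches describe letters in the windows and say nothing of binding.

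A further pair of windows is shown because the 2 deposited quantifications gave transcripts that began there very different shares of their gene. The Sgca window (chr11:94976328-94976577, - strand) precedes the start shared by Sgca-202 and Sgca-205, and the Sspn window (chr6:145933872-145934121, + strand) precedes the start of Sspn-201. Each held 1 E-box and no other motif, and neither overlapped an annotated exon.
Sgca: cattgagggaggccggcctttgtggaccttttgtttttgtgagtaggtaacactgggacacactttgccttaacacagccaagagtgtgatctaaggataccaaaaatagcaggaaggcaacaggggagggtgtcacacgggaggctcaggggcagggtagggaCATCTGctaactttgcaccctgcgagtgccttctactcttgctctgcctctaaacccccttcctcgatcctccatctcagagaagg
Sspn: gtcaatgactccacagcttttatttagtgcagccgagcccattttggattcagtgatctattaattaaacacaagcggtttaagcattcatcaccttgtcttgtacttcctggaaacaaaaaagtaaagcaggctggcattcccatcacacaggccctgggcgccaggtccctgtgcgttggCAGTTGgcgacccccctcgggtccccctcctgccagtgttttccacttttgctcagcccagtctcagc

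Replicate 1 held 40795740 expected counts over all deposited entries and replicate 2 held 44919441, and the 8 genes took 0.099% and 0.0969% of them. The smallest gene count of the 8 was the 1675 counts of Sgcd in replicate 1, and all 16 gene counts were whole numbers within 0.001. Fast fibre markers (9 genes, among them the fast myosin Myh4) summed to 92997 TPM (a level per transcript length, scaled to a fixed total per library) in replicate 1 and 72917 TPM in replicate 2, and 2 of 9 (Myh1 and Myh2) were called higher in replicate 2 by the test described below. Slow fibre markers differed far more, with summed levels of 240 TPM and 2531 TPM. In that list 9 of 9 were called higher in replicate 2, with a median log2 ratio of 3.32. Over all tested genes, 4.48% (670 genes) were called higher in replicate 2. Summed levels of the smooth muscle and pericyte list were 129 and 175 TPM, of the Schwann cell list 30.8 and 45.2 TPM, of the fibroblast list 326 and 313 TPM, of the macrophage list 26.3 and 29.9 TPM, of the satellite cell list 12.2 and 12.1 TPM and of the blood list 371 and 483 TPM. Of these lists, 2 of 8, 3 of 8, 0, 0, 0 and 0 genes were called, in that order, all higher in replicate 2, and no gene was at 0 counts in either library. Their part in the results below was not tested. In bulk tissue, fewer cells of a type and less RNA per cell cannot be told apart.

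The 8 genes spanned about an order of magnitude per length, with α-sarcoglycan highest, dystroglycan next, and utrophin lowest. Their order was the same in both libraries. All 8 were detected, at 1 TPM or more in both libraries, as were 10063 nuclear protein-coding genes with a median level of 8.21 TPM. In the gene table Utrn stood near that median and the other 7 above it. In the second quantification Utrn was above 42.7% of the same genes.

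**Figure D1:**
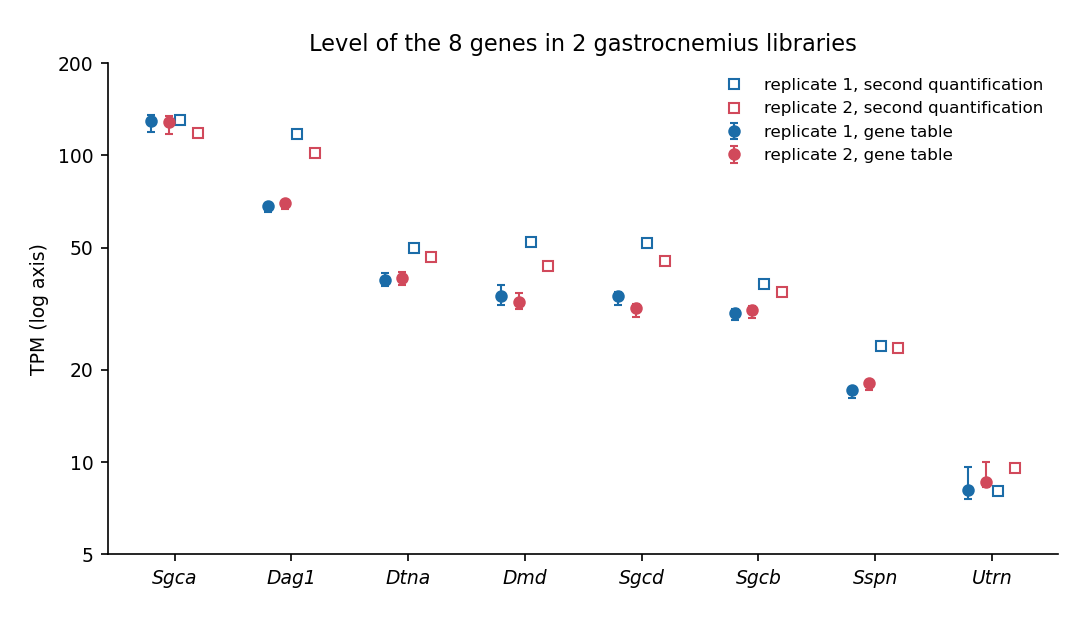
Level of each of the 8 genes in TPM on a log axis. Filled circles are the gene table with its deposited interval, open squares the second quantification, blue replicate 1 and red replicate 2. In the gene table the replicates lie close together for every gene, from about 129 TPM for Sgca to 8.35 TPM for Utrn, and the open squares lie above the circles of both replicates for Dag1, Dmd, Sgcd, Dtna, Sgcb and Sspn.

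Dystrophin was present at 34.73 TPM in replicate 1 and 33.28 TPM in replicate 2, a mean of 34.0 ± 1.03 TPM (SD, n = 2), above 84.4% of the detected coding genes. The gene (ENSMUSG00000045103.17, mm10 chromosome X, 82948870 to 85206141, + strand) had 11631 and 12245 expected counts. Utrophin (ENSMUSG00000019820.11, chromosome 10, 12382188 to 12869365, - strand) had 8.11 and 8.59 TPM, a mean of 8.35 ± 0.339 TPM (SD, n = 2). Utrophin was thus at 0.234 and 0.258 of the dystrophin level in the 2 libraries, and at 0.154 and 0.22 in the second deposited quantification.

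Dystroglycan, the receptor that both dystrophin and utrophin bind, was at 68.34 and 69.97 TPM. Its mean of 69.2 ± 1.15 TPM (SD, n = 2) was above 92.5% of detected coding genes. The gene (ENSMUSG00000039952.15, chromosome 9, 108204634 to 108263958, - strand) was 1 of 2 members with more than 10000 counts in each library, at 10464 and 11628, the other being Dmd. Dmd was at 0.508 of the Dag1 level in replicate 1 and 0.476 in replicate 2.

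The 3 sarcoglycans were at unequal levels. α-Sarcoglycan, a single-pass glycoprotein largely restricted to striated muscle, was at 128.95 and 128.27 TPM (mean 128.6 ± 0.481, SD, n = 2). β-Sarcoglycan, a core subunit also made outside striated muscle, was at 30.66 and 31.24 TPM (mean 30.95 ± 0.41, SD, n = 2). δ-Sarcoglycan, its partner in the core, was at 34.68 and 31.77 TPM (mean 33.2 ± 2.06, SD, n = 2). Sgca exceeded Sgcb 4.21-fold and 4.11-fold in TPM, and exceeded Sgcd 3.72-fold and 4.04-fold. In the second quantification these ratios were 3.43 and 3.28 to Sgcb and 2.52 and 2.61 to Sgcd. All these ratios use every transcript of each gene. In the first quantification, Sgca transcripts with the complete coding length held 77.06 and 72.31 TPM, 59.8% and 56.4% of the gene. The rest lay in Sgca-203 and Sgca-204, which are annotated as incomplete. Sgcb-201, the complete Sgcb transcript, was at 29.98 and 30.19 TPM there. In the second quantification the complete Sgca transcripts held 90.4% and 90.5%. The genes lie on chromosome 11 at 94962791 to 94976327 (Sgca, ENSMUSG00000001508.15), chromosome 5 at 73632749 to 73647790 (Sgcb, ENSMUSG00000029156.11) and chromosome 11 at 46896253 to 47988969 (Sgcd, ENSMUSG00000020354.15), all on the - strand.

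Dystrobrevin, which binds dystrophin and syntrophins, was at 39.33 and 39.67 TPM (mean 39.5 ± 0.24, SD, n = 2). The gene (ENSMUSG00000024302.16, chromosome 18, 23415135 to 23659715, + strand) shares 90 exonic bases with the antisense gene Gm47898, which had 85 and 152 counts, and whether the counting used strand is not given in the sources used here. Sarcospan, a small protein that crosses the membrane several times, was at 17.21 and 18.16 TPM (mean 17.7 ± 0.672, SD, n = 2). Its gene (ENSMUSG00000030255.13, chromosome 6, 145931641 to 145965223, + strand) shares 69 exonic bases with the antisense gene Sspnos, which had 0 counts in both libraries.

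From highest to lowest the order was Sgca, Dag1, Dtna, Dmd, Sgcd, Sgcb, Sspn and Utrn. The ranges of the 2 libraries overlapped for 1 neighbouring pair, Dmd and Sgcd, and were separate for the other 6 neighbouring pairs. The second quantification, made from the reads without the transcriptome alignment, kept Sgca, Dag1, Sgcb, Sspn and Utrn in their places. It put Sgcd (51.8 and 45.2 TPM), Dtna (49.7 and 46.7 TPM) and Dmd (52.4 and 43.6 TPM) in that order, with ranges that overlapped, so the order of these 3 was not resolved across quantifications. Dag1 reached 117 and 102 TPM there, 1.72 and 1.46 times its gene-table level, while Sgca reached 130 and 118 TPM, 1.01 and 0.92 times. The 2 quantifications spread the fixed TPM total differently, and nuclear coding genes held 45.8% and 43.8% of it in the first and 71.1% and 63.5% in the second. Rescaled to the total of nuclear coding genes, the contrast turned: Dag1 had means of 154 in the first and 163 in the second, and Sgca 287 and 185.

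Between the 2 libraries none of the 8 genes differed 2-fold or more. Each gene's rounded counts were compared by an exact 2-sided binomial test with library sizes scaled by edgeR's TMM factors, and p-values were adjusted by Benjamini-Hochberg over 14965 genes, those whose counts averaged 10 or more. Calls needed an adjusted p below 0.05 together with a 2-fold or larger difference. No member was called, 0 of 8, against 6.18% of all tested genes (925 genes). At an adjusted p below 0.05 with no fold, a rule added after seeing the data, 5 of 8 members differed, against 35.4% of all tested genes (5300 genes). Such a difference is beyond counting error in deep libraries and has no replicate check. At higher counts the test reaches smaller differences. Members had 1675 counts or more and tested genes a mean of 10 or more, so these shares are not matched in depth. Of the 5, 1 was higher in replicate 2, where 18.9% of tested genes were, and 4 were higher in replicate 1, where 16.5% of tested genes were.

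The 1 member higher in replicate 2 was Utrn, with 1996 and 2748 counts. Its scaled counts were 1.22-fold higher (95% counting interval 1.15 to 1.29, exact binomial test, adjusted p = 2.71e-10). In the gene table its TPM differed less, a log2 ratio of 0.08 against 0.28 in counts. The deposited mean transcript length there, by which TPM divides, was 7897 nt in replicate 1 and 9353 nt in replicate 2. In the second quantification its TPM was 8.07 in replicate 1 and 9.60 in replicate 2. Besides muscle fibres, endothelial cells make utrophin. The summed level of 8 endothelial markers was 46.1 TPM in replicate 1 and 66.0 TPM in replicate 2. Among them, 2 of 8 were called higher in replicate 2, against 4.48% of all tested genes, and none was at 0. The 10 neuromuscular junction genes summed to 89.3 and 82.3 TPM with 0 called. The part of either in the Utrn difference was not tested.

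Dtna had the largest count difference of the 8, with 4619 and 4196 counts. Its scaled counts in replicate 2 were 0.802 of those in replicate 1 (95% counting interval 0.769 to 0.836, exact binomial test, adjusted p = 8.07e-24). Its TPM in the gene table did not follow, at 39.33 and 39.67. In the second quantification its TPM was lower in replicate 2, at 49.7 and 46.7. The deposited mean length of its transcripts in the gene table was 3819 nt in replicate 1 and 3158 nt in replicate 2. There the counts and the level per length parted.

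The other 3 members past counting error were higher in replicate 1 by small amounts. Dmd counts in replicate 2 were 0.93 of those in replicate 1 (interval 0.906 to 0.953), Sgca counts 0.928 (0.889 to 0.968) and Sgcd counts 0.917 (0.857 to 0.981). The adjusted p values of the exact binomial test were 1.28e-07, 0.0023 and 0.0339. With library sizes set from the ERCC spike-ins instead, the median log2 ratio of all tested genes moved from 0.01 to 0.23, and 7 of 8 members then had ratios above 0, so these directions hold relative to the other genes and not to the spike-ins. With total-count scaling 3 of 8 members passed counting error. Dag1, Sgcb and Sspn did not pass, with ratios of 0.981 (0.955 to 1.01), 0.975 (0.931 to 1.02) and 1.02 (0.965 to 1.08). The median log2 ratio of the 8 was -0.07, beside 0.01 over all tested genes, and the median absolute log2 ratio was 0.11 beside 0.21. The tested genes include ones whose counts average as few as 10, where counting error alone gives larger ratios. No member had fewer than 1675 counts, so the 2 medians are not matched in depth.

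**Figure D2:**
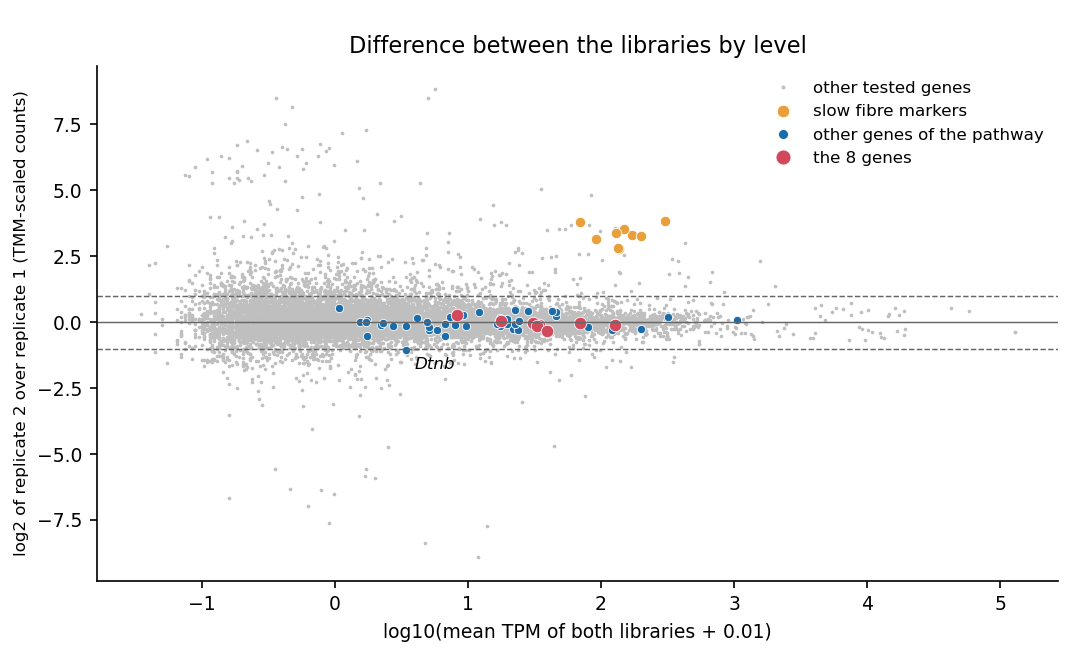
The log2 ratio of replicate 2 to replicate 1 (TMM-scaled counts) against the mean level, as log10 of TPM plus 0.01, for all tested genes (grey), the 8 genes (red), the other listed genes of the pathway (blue) and slow fibre markers (orange), with dashed lines at a 2-fold difference. The red points lie between -0.32 and 0.28, and the 9 orange points lie at 2.79 or above. Dtnb is the 1 blue point past a dashed line.

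Other genes of the complex were read from a list of 12 further components, of which 9 had enough counts to be tested. Of these, 1 was called, Dtnb, and it was higher in replicate 1 (1.7% of all tested genes were called in that direction). Dtnb encodes β-dystrobrevin, the relative of Dtna known mainly from tissues other than skeletal muscle. It had 226 counts and 4.5 TPM in replicate 1 and 123 counts and 2.36 TPM in replicate 2. The difference was 2.08-fold (95% counting interval 1.66 to 2.61, exact binomial test, adjusted p = 2.46e-10), close to the threshold, and it was not called with ERCC scaling or in the second quantification. Nos1, the neuronal nitric oxide synthase held at the membrane by the complex, was at 18.04 and 27.13 TPM, and its scaled counts were 1.39-fold higher in replicate 2. Of the 9, 3 were higher in replicate 2 and 4 in replicate 1 past counting error, beside 18.9% and 16.5% of all tested genes. Their median log2 ratio was 0.08. The ζ-sarcoglycan gene Sgcz had 0 counts in both libraries, and the γ-syntrophin genes Sntg1 (1 and 0 counts) and Sntg2 (2 and 5 counts) were not tested. These last genes were named after their values were seen.

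Enzymes that build the laminin-binding sugar of α-dystroglycan were all measured and none was called, 0 of 17, against 6.18% of all tested genes. Among the highest were B3galnt2, which adds N-acetylgalactosamine to the core sugar, at 32.39 and 32.31 TPM, and Dpm1, a subunit of the mannose donor synthase, at 31.88 and 31.82 TPM. The median log2 ratio of the list was -0.12. Past counting error, 1 was higher in replicate 2 (18.9% of all tested genes were) and 3 in replicate 1 (16.5% were).

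Matrix ligands of dystroglycan gave 0 of 9 tested genes called, from a list of 10, against 6.18% of all tested genes. Lamb2, a laminin β chain of the muscle basement membrane, was highest at 39.17 and 53.21 TPM. Hspg2 (perlecan) was at 22.80 and 25.97 TPM and Lamc1, the γ chain of most laminins, at 23.19 and 21.97 TPM. The median log2 ratio was 0.02. Past counting error, 4 genes were higher in replicate 2 (18.9% of all tested genes were) and 3 in replicate 1 (16.5% were).

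Cytoskeletal partners of the complex were the most abundant of the 4 pathway lists, with summed levels of 1757 and 1889 TPM. From this list of 11, 0 of 9 tested genes were called, against 6.18% of all tested genes. Desmin (Des), the muscle intermediate filament, was at 996 and 1096 TPM. Plectin (Plec), which links desmin to the complex, was at 294 and 342 TPM and synemin (Synm) at 209 and 190 TPM. The median log2 ratio was 0.1. Past counting error, 4 genes were higher in replicate 2 (18.9% of all tested genes were) and 2 in replicate 1 (16.5% were). Over all 4 pathway lists, 1 gene was called.

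The transcript tables divide the level of each gene among its forms, and for some genes the 2 quantifications did so differently. Dmd has 14 annotated transcripts, of which 3 are protein-coding. Dmd-203, with 14910 nt, 79 exons and 3678 codons, encodes full-length dystrophin and was the only transcript of 5000 nt or more. It was at 23.25 and 22.35 TPM, which is 66.9% and 67.2% of the gene's TPM (mean 67.0 ± 0.164%, SD, n = 2). Because it is long, it held 93.5% of the gene's counts in each library. In the second quantification it was at 30.2 and 27.6 TPM, or 57.7% and 63.3% of the TPM and 95.4% and 96.5% of the counts.

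The short coding transcripts Dmd-201 (617 codons) and Dmd-202 (604 codons) start 2099.51 kb downstream of Dmd-203, after the downstream window shown above. They encode C-terminal dystrophins that many tissues other than muscle make. Both were listed at 0 TPM in both libraries and both quantifications. Dmd-201 has no 31-base stretch that is absent from every other transcript and Dmd-202 has 28 such stretches. All 5 transcripts that start within 200 nt of that position together held 3.6% and 2.4% of the gene's TPM, and 1.29% and 1.19% in the second quantification. Transcripts that start within 100 nt of Dmd-203 held 70.1% and 70.0%, and 61.3% and 67.0% in the second.

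The remaining Dmd level lay in transcripts with no coding sequence that start inside the gene, and the quantifications placed it differently. The retained-intron transcript Dmd-212 was at 4.93 and 5.16 TPM in the first and at 0.386 and 0.353 TPM in the second. The 868 nt Dmd-210, annotated as a processed transcript, was at 3.04 and 3.56 TPM in the first and at 16.7 and 13.0 TPM in the second. These 2 were named after their values were seen. In both, the libraries lay closer to each other than the quantifications did.

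**Figure D3:**
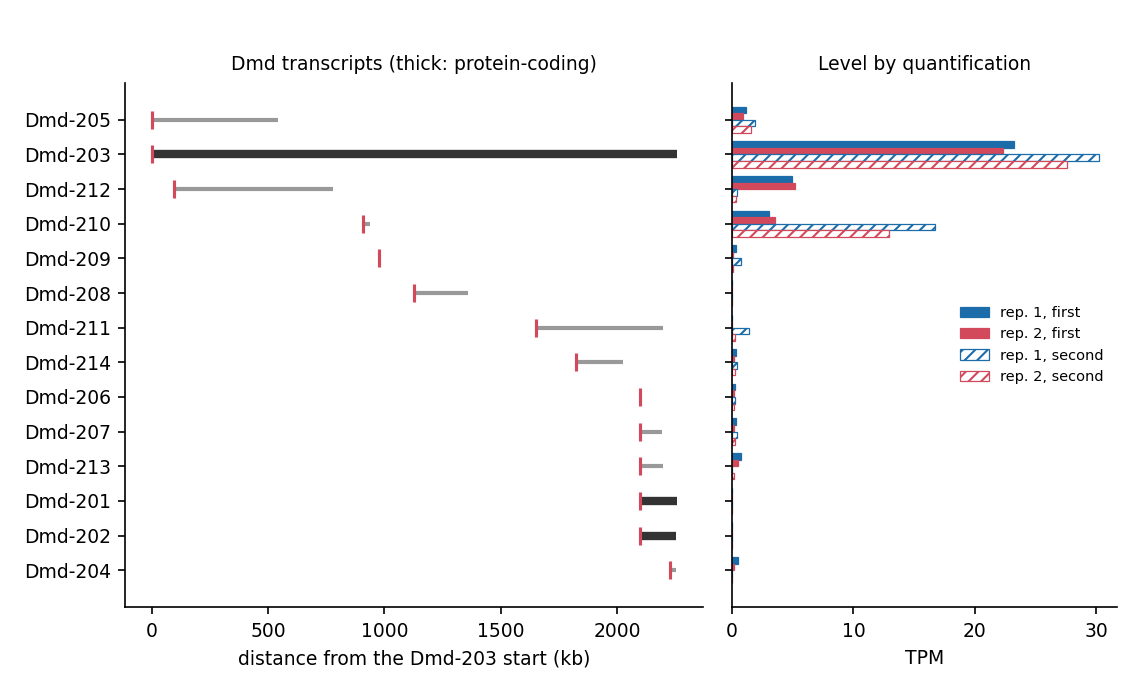
The 14 Dmd transcripts by position, in kb from the start of Dmd-203 (left, red ticks are starts, thick dark lines are protein-coding), and their TPM (right, solid bars the first quantification, hatched bars the second, blue replicate 1, red replicate 2). Dmd-203 has the longest bars, between 22.35 and 30.2 TPM, and the short coding transcripts Dmd-201 and Dmd-202 have none.

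Utrn was likewise read mainly as full-length coding transcripts. Utrn-201 and Utrn-205 have different annotated starts, at 12861735 and 12869365 on chromosome 10, and the same coding length of 3430 codons. Together they held 58.4% and 70.7% of the gene's TPM (mean 64.6 ± 8.75%, SD, n = 2) and 81.5% and 80.9% in the second quantification. Utrn-201 led in both, with 3.94 and 4.76 TPM in the first and 4.16 and 5.04 TPM in the second. Utrn-205 held 9.85% and 15.3% of the gene's TPM in the first and 30.0% and 28.4% in the second. Only 2 stretches of 31 bases in Utrn-201 are absent from every other Utrn transcript, and 609 in Utrn-205. The share of each start was not settled. The 250 bases before the annotated Utrn-201 start held 7 E-boxes, some overlapping, and none of the other 3 motifs. They lie in an intron of Utrn-205, which starts further upstream and has 75 exons against 74 in Utrn-201. Whether transcription starts at the Utrn-201 position was not tested. In the full-length share, the difference between libraries in the first quantification was not present in the second. The share of shorter Utrn forms was therefore not settled by these tables.

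Dag1 gave 4 transcripts with the complete coding length of 893 codons, which held 93.2% and 92.2% of its TPM and 71.0% and 78.2% in the second quantification. The leading one, which is also the longest at 5662 nt, was at 44.33 and 45.14 TPM, and at 53.4 and 49.5 TPM in the second. The window before its start held 3 GC boxes and 1 E-box. Sgcb was nearly all Sgcb-201 (320 codons), at 97.8% and 96.6% of TPM. Sgcd was nearly all Sgcd-201 (289 codons), at 99.6% and 97.5%. For these 2 genes the second quantification gave 98.1% to 99.3% and 97.6% to 99.6%. The non-coding transcript Sgcd-204, named after its value was seen, was at 0.15 and 0.74 TPM with deposited intervals that did not overlap, and at 0.219 and 0.969 TPM in the second quantification.

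Sgca and Sspn were the members whose transcripts the quantifications divided most differently. The first spread Sgca over 4 transcripts, led by Sgca-201 at 46.33 and 38.78 TPM, with Sgca-202 at 30.73 and 33.53 TPM. The second put 111 and 101 TPM, 85.2% and 85.3% of the gene, in Sgca-202 and listed Sgca-201 at 0. Both encode the same 387 codons and differ in their start, at 94973463 for Sgca-201 and at 94976327 for Sgca-202, after the Sgca window shown above. Transcripts from that upstream start held 23.8% and 26.1% of the gene's TPM in the first quantification and 90.4% and 90.5% in the second. Sgca-201 has no 31-base stretch of its own and Sgca-202 has 6. The share of each start was therefore not settled.

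For Sspn the difference touches the annotated coding length. The first quantification gave all of the gene, 17.21 and 18.16 TPM, to Sspn-201, which encodes 216 codons and starts after the Sspn window shown above. The second gave 70.7% and 57.8% to Sspn-203, which starts upstream at 145931641 and encodes 140 codons, and left Sspn-201 with 6.99 and 9.92 TPM. To put such differences on a common scale, the share of a gene's TPM that moved between transcripts was computed for 6091 genes. Between the quantifications it was 65.5% for Sgca and 64.2% for Sspn, above 93.6% and 93.3% of those genes, and the median gene moved 20.5%.

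**Figure D4:**
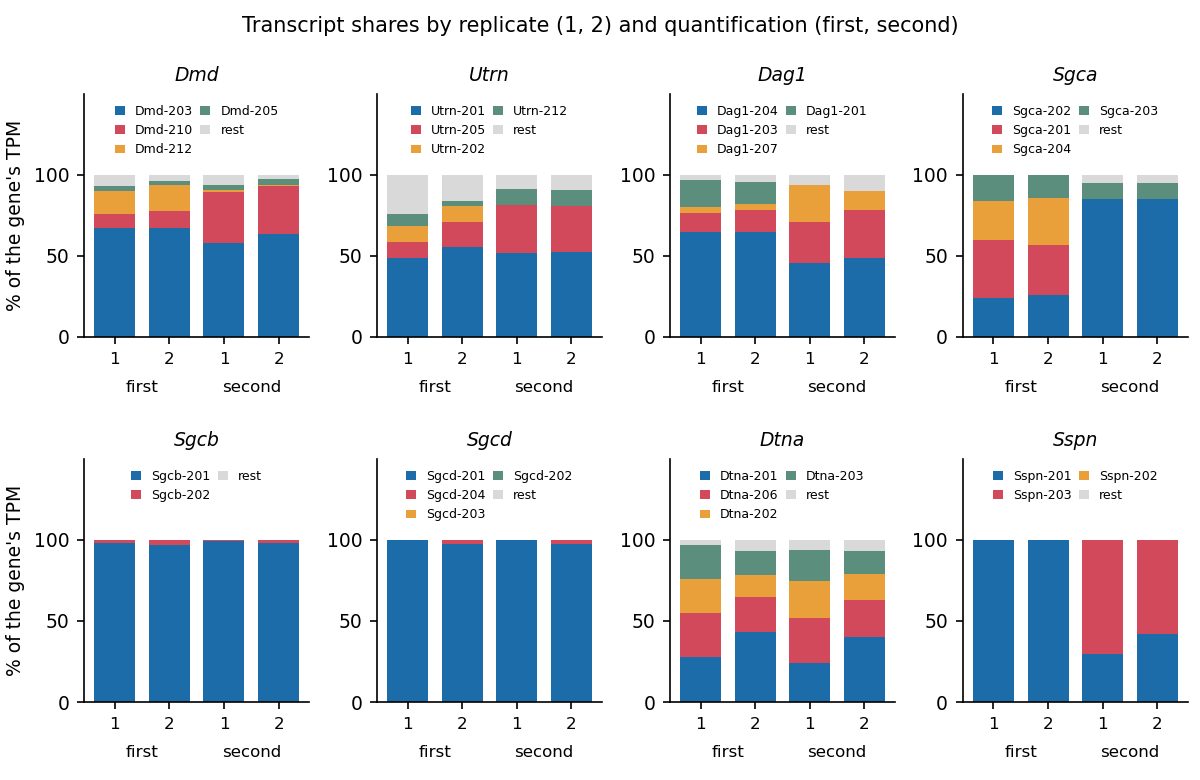
Share of each gene's TPM by transcript, in percent, for replicates 1 and 2 in the first and the second quantification, with the 4 leading transcripts of each gene coloured and the rest in grey. Sgcb and Sgcd are nearly 1 colour in all 4 bars, Sgca and Sspn change colour between quantifications, and Dtna-201 in Dtna is larger in replicate 2 in both.

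Of the 8 genes, Dtna moved the largest share of its TPM between transcripts from library to library, in both quantifications. Alternative ends of this gene are known to give long and short dystrobrevins, and the short form lacks the C-terminal part that binds dystrophin and the syntrophins. The shortest complete coding transcript, Dtna-201 (1596 nt, 371 codons), was at 11.02 TPM in replicate 1 and 17.04 TPM in replicate 2, and its deposited intervals, 9.18 to 12.5 and 15.1 to 18.4 TPM, did not overlap. The longer coding transcripts Dtna-206 (567 codons), Dtna-202 (682 codons) and Dtna-203 (746 codons) were each lower in replicate 2, at 10.53 and 8.53, 8.30 and 5.52, and 8.11 and 5.92 TPM. Their deposited intervals did not overlap between libraries either.

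The share of Dtna-201 was 28.02% in replicate 1 and 43.0% in replicate 2, and 23.8% and 40.3% in the second quantification. The 3 longer forms together went from 68.5% to 50.3%, and from 70.2% to 52.6% in the second. The share of Dtna TPM that moved between libraries was 18.5%, above 86.4% of the 6091 genes, and 18.1% in the second, above 81.7%. Replicate 2 was also the library with the higher slow fibre markers given above, and their part in this difference was not tested. With 1 library on each side the shift has no replicate check, and transcripts other than the leading Dtna-201 were named after their values were seen.

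**Figure D5:**
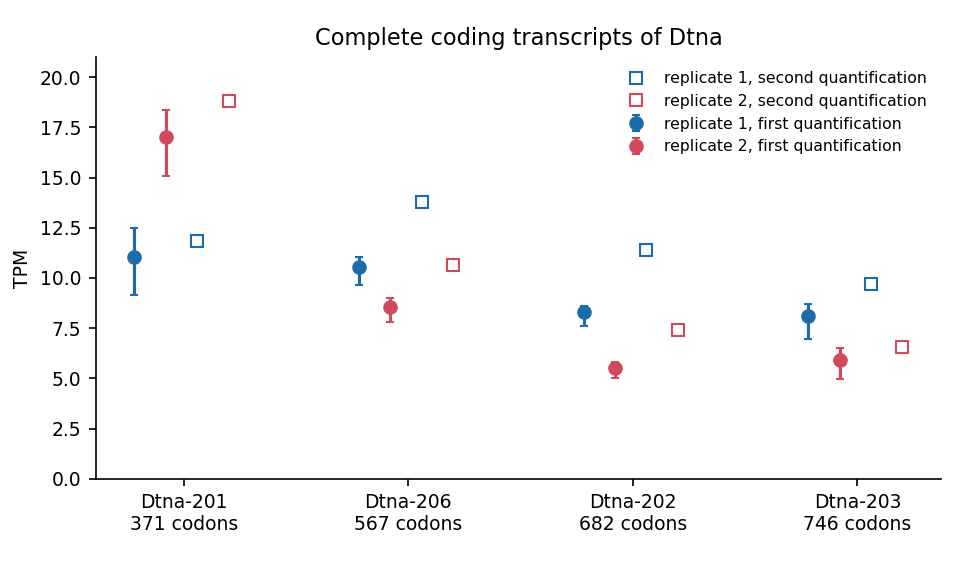
TPM of the 4 complete coding transcripts of Dtna, ordered by coding length in codons. Circles with deposited intervals are the first quantification, open squares the second, blue replicate 1 and red replicate 2. Dtna-201 is higher in replicate 2 (17.04 against 11.02 TPM) and the other 3 are lower, in both quantifications.

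The genes closest to Dmd in level over the 2 libraries, by Euclidean distance of log2(TPM + 0.5) among 22027 protein-coding genes, were Zdhhc5 (34.35 and 33.28 TPM), Mrps34 (35.24 and 33.47 TPM) and Snapin (35.29 and 33.51 TPM). Those closest to Sgca were Myo18b (129.45 and 130.25 TPM), Mrpl42 (132.39 and 130.13 TPM) and Sod1 (134.98 and 129.53 TPM). With 2 libraries, such likeness is in level alone.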

How the data were processed

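Total RNA was measured in 2 libraries, each made, per the labels, from 300 ng of RNA to which synthetic ERCC spike-in RNAs were added. Assembly mm10 and GENCODE M21 come from the labels and the list of files. For the aligner and the programs: not given in the sources used here. Per the list of files, the authors deposited a gene table and a first transcript table, both from a transcriptome alignment, and a second transcript table made directly from the reads. The deposited expected counts are reads per gene or transcript, shared out where they match several, per the file headers. TPM values, also deposited, divide counts by an effective length and sum to a fixed total per library. The deposited FPKM values stand beside them, per the file headers, and were not tested. The deposited percent of isoform use and posterior standard deviations and interval bounds are the authors' columns, whose interval level no header states.

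The 8 genes and the gene lists were chosen with earlier results of these data known. Expected counts were rounded. An exact 2-sided binomial test (Python 3.11.15, scipy 1.17.1) compared the libraries, with TMM library sizes from edgeR 4.0.16 (R 4.3.3), a mean count of at least 10 and Benjamini-Hochberg adjustment. It holds counting error only. edgeR's quasi-likelihood test was not used because the series has 1 group. The comparison was tested on simulated counts. Ratios carry an exact 95% interval, and log2 ratios use scaled counts + 0.5. Named genes are the 8, every called gene and the 3 highest of each pathway list, the leading transcript of each gene in each quantification, and the 3 genes nearest to Dmd and to Sgca in level. Some genes that this rule takes are not reported here. Others are marked as named after their values were seen. Shares of transcripts that moved were computed for protein-coding genes with several transcripts and a mean TPM of at least 5. RefSeq promoter windows of 7 of the 8 genes were matched by symbol and searched, and the windows that overlap annotated exons are not printed. The Dtna window and protein sequences are not used here. Alternatives were total-count, DESeq2 1.42.0 and ERCC scaling, other filters, folds and pseudocounts, the second table and leaving out each library.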

Additional observations from a re-analysis of the deposited data

How the results depend on the processing

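No paired analysis was possible because the series has 1 group. No member was called under any of the 7 alternatives to the count test, the 1.5-fold rule included. The 5 members past counting error became 3 with total-count scaling, 4 without the filter on low counts, 4 in the second quantification and 7 with ERCC scaling, where 6 were higher in replicate 2. The number of pathway genes called went from 1 to 0 with ERCC scaling and in the second quantification. The number of all genes called went from 925 to 367 with a mean count of at least 100, where 10305 genes were tested, and to 1759 at 1.5-fold. With ERCC scaling 86.4% of the called genes were higher in replicate 2, beside 72.4%.

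Some log2 ratios changed sign. With ERCC scaling the ratios were 0.11 for Dmd, 0.19 for Dag1, 0.11 for Sgca, 0.18 for Sgcb and 0.0942 for Sgcd, each below the 0.23 median of all genes. With total-count scaling Dag1 was at 0.0123 and Sgcb at 0.0038. From gene-table TPM in place of counts Dag1 was at 0.0338, Sgcb at 0.0266 and Dtna at 0.0123.

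The share of Dmd in long transcripts was 60.5% in the second quantification, 93.5% in counts, and 100% of the protein-coding transcripts alone. The share of Dtna-201 was 16.1% in counts. Sspn-201 held 35.8% in the second quantification. Full-length Utrn transcripts held 81.2% in the second quantification and 92.0% in counts. Leaving out 1 library only returns the value of the other, so it is no further check. Those values were 66.9% and 67.2% for Dmd, 28.02% and 43.0% for Dtna-201, 100% for Sspn-201 and 58.4% and 70.7% for Utrn. Rescaling to nuclear protein-coding genes raised the mean levels in the first and second quantification to 75.9 and 71.2 for Dmd, 18.7 and 13.2 for Utrn, 154 and 163 for Dag1, 287 and 185 for Sgca, 69.1 and 55.1 for Sgcb, 74.1 and 72.1 for Sgcd, 88.2 and 71.8 for Dtna and 39.5 and 35.3 for Sspn. The causes were not tested. With 1 library on each side the test holds counting error only, and no spread between animals could be estimated.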
